A study of Mus musculus with 10 samples.

Results

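The genes described here encode the enzymes that build cholesterol and fatty acids from acetyl-CoA, together with the proteins that switch these enzymes on. They were taken by name, 32 genes in all, of the 33585 genes with values. There were 18 enzymes of sterol synthesis, 8 enzymes of fatty acid synthesis and desaturation, and 6 regulators. All 32 were expressed at a mean of 1 FPKM or more, a read level divided by transcript length and by library size, and were therefore among the 13334 genes tested.

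The RNA came from whole tumor-draining lymph nodes (TDLNs) of female BALB/c mice, 6 weeks old, that carried 4T1 tumors, a mammary carcinoma cell line of the mouse. Every mouse of both groups received microwave ablation (MWA) of the tumor on day 10, and the nodes were taken on day 15. The 5 mice of the MWA+2DG group were injected with 2-deoxy-D-glucose (2DG), a glucose analogue that blocks glycolysis, at 500 mg/kg every 2 days from day 10. The 5 mice of the MWA group received PBS instead, so the comparison asks what 2DG added to ablation, and nodes without ablation or without a tumor were not compared here.

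Sterol synthesis starts when acetyl-CoA units are joined and reduced to mevalonate. Mevalonate is turned into isoprenoid units, these are linked into squalene, and squalene is closed into lanosterol, which a chain of demethylases, reductases and isomerases converts to cholesterol. The transcription factor SREBP2 (Srebf2) drives most of these genes when membranes run low in sterol. SREBP1 (Srebf1) acts more on the fatty acid genes. Both are carried by Scap to the Golgi for release, and the Insig proteins hold them back in the endoplasmic reticulum when sterol is plentiful. Dividing lymphocytes need both products for new membrane, and glucose is a main source of the acetyl-CoA from which they are made.

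All but 1 of the 18 sterol enzymes had a lower estimate in the MWA+2DG nodes, by small amounts. The median log2 fold change of the sterol enzymes was -0.16, on the log2(FPKM + 1) scale used for every fold change here. Over all tested genes the median was 0.0074, and 47.4% of genes lay below 0. The 18 enzymes were read in the same mice, so their signs are not 18 independent observations. By the rule the study names for these data, an unadjusted P below 0.05 in limma with a log fold change beyond 0.25, read here as log2, Cyp51 and Idi1 were lower with 2DG and none of the 18 was higher. That is 2 of 18 sterol enzymes, against 1.87% of all tested genes called lower and 2.82% called in either direction. None of the fatty acid enzymes and none of the regulators passed this rule, and their median log2 fold changes were 0.044 and -0.021. After Benjamini-Hochberg adjustment over all 13334 genes limma called no gene of the whole table at 0.05, while 567 genes, or 4.25%, had an unadjusted P below 0.05, a share no larger than that threshold lets through when no gene differs. Lower genes made up 2.62% of the table at that P, and 3 of 18 sterol enzymes were among them. The member with the smallest limma P, Cyp51, had an adjusted p of 0.995.

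The balance of calls depended on the scaling and on the mice. Over all genes 127 were called higher and 249 lower, and these were 328 and 159 after each library was rescaled to the same sum, which moved the median of all genes to 0.068. With that scaling 15 of 18 sterol enzymes stayed below 0, with a median of -0.12 and no call, and Mvk, Tm7sf2, Srebf1, Srebf2, Acly and Fads1 turned positive. The balance over all genes also turned without MWA+2DG 5 (222 higher and 177 lower), without MWA+2DG 2 and 5 (208 and 156) and within replicates 1 and 2 (371 and 290).

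The libraries were not alike within their groups, and this bears on every value below. Replicates 1 and 2 of both groups stood apart from replicates 3 to 5 of both groups along the first principal component, which held 36.4% of the variance. Each replicate set held mice of both treatments in equal number. The nodes also differed in tissue content. MWA+2DG 5 had a summed level of 144 FPKM over 13 adipocyte markers, against 11.3 to 82.8 FPKM in the other nodes, and the lowest summed levels of dividing-cell and germinal centre B cell markers. The lymph node label fits its defining markers, since the summed level of 8 B cell markers was 1364 to 1659 FPKM and that of 9 T cell markers 313 to 494 FPKM.

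The members covered a wide range of levels, and FPKM, being divided by transcript length, allows them to be set side by side. Ebp, the isomerase that shifts the double bond of the sterol ring, had the highest level of the sterol enzymes, with 14.2 ± 2.07 FPKM (SD, n = 5) in MWA and 14.4 ± 0.707 FPKM in MWA+2DG nodes. It was followed by Acat2, the thiolase that joins acetyl-CoA units, with 12.1 ± 0.582 and 10.7 ± 1.80 FPKM. The lowest were Lss, which closes squalene into lanosterol (1.99 ± 0.272 and 1.84 ± 0.348 FPKM), and Hsd17b7, a ketosteroid reductase (1.71 ± 0.316 and 1.58 ± 0.334 FPKM). Neighbouring genes in this order mostly overlapped between mice, as Ebp and Acat2 did, whereas Ebp and Lss were far apart in every node. Acat2 has a close paralog, Acat3, and Idi1 a close paralog, Idi2. How reads shared by such genes were divided was not stated in the sources at hand.

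The fatty acid enzymes spanned more. Scd1, a desaturase that makes oleate, had the highest level of all members, with 88.8 ± 15.8 FPKM (SD, n = 5) in MWA and 93.6 ± 9.34 FPKM in MWA+2DG nodes. Acly, which cuts citrate to supply cytosolic acetyl-CoA, came next with 33.4 ± 2.19 and 33.5 ± 4.14 FPKM, close to Scd2. The lowest were Acaca, the acetyl-CoA carboxylase that commits carbon to fatty acids, and Elovl6, which elongates palmitate. Among the regulators Srebf2 was highest at 31.7 ± 2.20 and 31.5 ± 3.48 FPKM, and Srebf1 followed at 15.7 ± 0.650 and 15.5 ± 1.08 FPKM. Stard4, a sterol carrier, and Insig2 had the lowest levels of the 6.

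**Figure D1:**
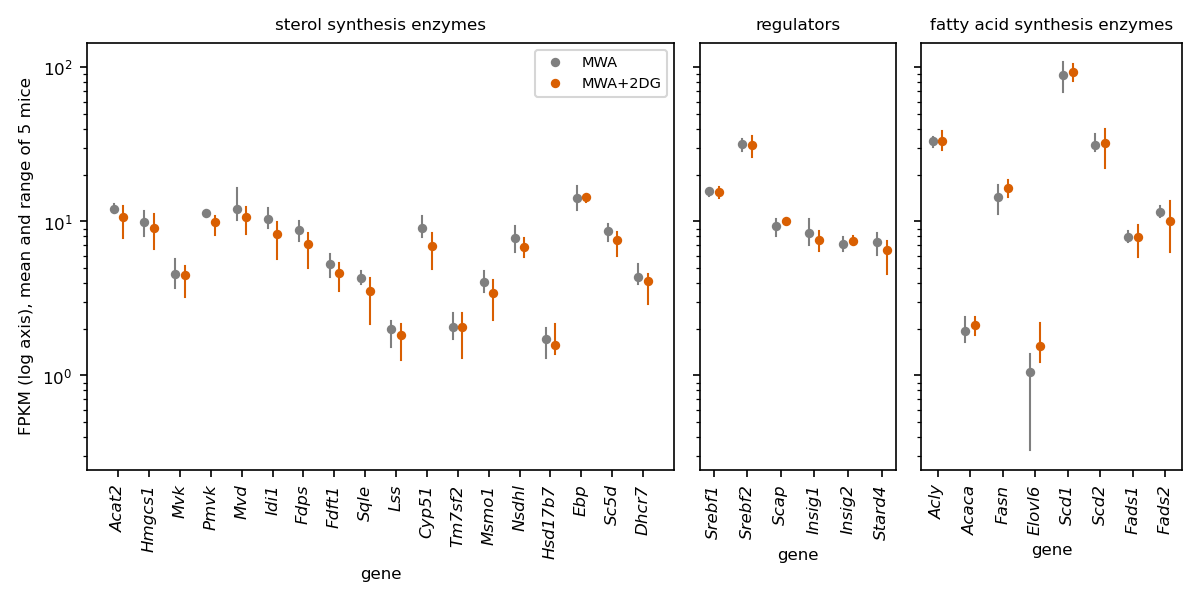
Mean FPKM of each gene on a log axis (points) with the lowest to highest of 5 mice (lines), MWA in grey and MWA+2DG in orange, by arm. Scd1 is highest in both groups, and the ranges of the groups overlap for every gene.

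The start sites of these genes were examined for the letters of known binding motifs, because sterol enzymes are known for shared promoter elements. The 250 bases before the start were taken from RefSeq promoter sequences of build GRCm38.p6, where 25 of the 32 members had an entry. Both strands were searched, and no motif contains another. The letters CCAAT, bound by NF-Y, were present for 14 of 15 sterol enzymes, 4 of 5 regulators and 1 of 5 fatty acid enzymes, beside 37.5% of all 27025 genes with an entry and 40.6% of the tested ones. The GC box GGGCGG was present for 14 of 15 sterol enzymes, 5 of 5 regulators and 2 of 5 fatty acid enzymes, beside 35.4% of all genes and 63.2% of the tested ones. The E-box CACGTG was present for 5 of 25 members (Dhcr7, Hsd17b7, Sc5d, Insig1 and Scap), beside 6.86% of all genes and 9.84% of the tested ones. The core of the classical sterol regulatory element, TCACCCCAC, was present for 1 of 25 members, Hmgcs1, beside 0.555% of all genes and 0.584% of the tested ones. Only these exact letters were searched, within 250 bases. A member without a match may therefore still hold another form of the element or one elsewhere.

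Sequences before the start are shown for both enzymes called lower (Cyp51 and Idi1) and for the enzyme with the exact letters TCACCCCAC (Hmgcs1). The enzyme whose estimate was not below 0 (Ebp) is shown too. They lie at chr5:4104698-4104947 (minus strand) for Cyp51, chr13:8885356-8885605 (plus strand) for Idi1, chr13:119690101-119690350 (plus strand) for Hmgcs1 and chrX:8193513-8193762 (minus strand) for Ebp. Capitals mark CCAAT or its complement ATTGG and, in Hmgcs1, TCACCCCAC. Each run reads 5′ to 3′ along its gene and ends at the base before the RefSeq start.
Cyp51: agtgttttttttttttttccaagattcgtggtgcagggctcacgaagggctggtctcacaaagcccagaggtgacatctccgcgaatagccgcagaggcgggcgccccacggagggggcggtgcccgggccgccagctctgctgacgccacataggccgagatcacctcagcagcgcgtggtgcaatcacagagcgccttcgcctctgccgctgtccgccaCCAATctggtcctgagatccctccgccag
Idi1: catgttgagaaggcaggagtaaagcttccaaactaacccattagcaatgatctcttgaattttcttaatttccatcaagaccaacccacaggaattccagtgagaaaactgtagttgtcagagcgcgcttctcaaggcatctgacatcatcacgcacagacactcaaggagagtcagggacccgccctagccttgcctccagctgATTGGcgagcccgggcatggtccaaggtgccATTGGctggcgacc
Hmgcs1: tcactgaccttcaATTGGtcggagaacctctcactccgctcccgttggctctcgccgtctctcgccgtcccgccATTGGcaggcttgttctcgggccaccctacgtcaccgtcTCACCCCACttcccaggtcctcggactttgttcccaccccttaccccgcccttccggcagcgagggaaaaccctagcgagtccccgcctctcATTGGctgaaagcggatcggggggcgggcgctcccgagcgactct
Ebp: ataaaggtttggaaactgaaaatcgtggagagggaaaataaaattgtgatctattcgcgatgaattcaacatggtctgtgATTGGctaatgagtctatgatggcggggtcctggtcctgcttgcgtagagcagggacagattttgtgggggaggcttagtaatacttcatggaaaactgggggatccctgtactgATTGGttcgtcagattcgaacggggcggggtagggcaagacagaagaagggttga
Cyp51 held 1 CCAAT match, Idi1 and Ebp 2 each and Hmgcs1 3. CCAAT letters were present before Ebp as before the enzymes called lower.

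The mevalonate steps were the first group. All 7 of these enzymes (Acat2, Hmgcs1, Mvk, Pmvk, Mvd, Idi1 and Fdps) had estimates below 0, with a median of -0.18, and 1 was called lower. Pmvk phosphorylates phosphomevalonate. It read 11.1, 10.7, 11.3, 11.3 and 11.9 FPKM in MWA replicates 1 to 5 and 8.18, 9.63, 10.8, 9.95 and 10.8 FPKM in MWA+2DG replicates 1 to 5. All 5 MWA+2DG nodes lay below the MWA mean and 3 below the lowest MWA node, so the groups overlapped at their edge. Its log2 fold change was -0.18 (SE 0.0796, 95% interval -0.35 to -0.0035), with a limma P of 0.0463 that met the P threshold and a size that did not reach 0.25. The exact permutation p was 0.0238. With labels exchanged only within the replicate sets it was 0.0167, the smallest value such an exchange can give, because the groups did not overlap within either set, which 2.45% of all tested genes also showed in one direction or the other. In MWA+2DG 5, the lowest node for most sterol enzymes, Pmvk was above its mean over the 10 mice, and without that mouse its estimate was -0.21.

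Idi1 isomerises the isoprenoid unit so that units can be linked. It read 11.5, 9.11, 10.3, 12.2 and 9.02 FPKM in MWA replicates 1 to 5 and 9.85, 8.61, 9.59, 7.69 and 5.71 FPKM in MWA+2DG replicates 1 to 5. MWA+2DG 5 was the lowest node and 3 MWA+2DG nodes lay below every MWA node, while the others fell among the MWA values. The mean was 10.4 ± 1.42 FPKM (SD, n = 5) in MWA and 8.29 ± 1.68 FPKM in MWA+2DG nodes, a log2 fold change of -0.31 (SE 0.138, limma P = 0.0475, exact permutation p = 0.0794). Without MWA+2DG 5 it was -0.20, and the call was lost, as it was without MWA 1, MWA 3, MWA 4, MWA+2DG 2 or MWA+2DG 4 (-0.27, -0.31, -0.25, -0.33 and -0.29), with a pseudocount of 0.1, with no filter on low genes and after rescaling.

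Fdps links isoprenoid units into farnesyl diphosphate, where sterols part from prenylated proteins and other isoprenoids. It read 9.49, 7.56, 7.44, 9.55 and 10.01 FPKM in MWA replicates 1 to 5 and 8.34, 8.39, 7.26, 6.65 and 5.02 FPKM in MWA+2DG replicates 1 to 5. The lowest MWA nodes, replicates 2 and 3, lay among the MWA+2DG nodes. Its log2 fold change of -0.28 (SE 0.134, limma P = 0.0606, exact permutation p = 0.0635) was not called. Within replicates 3 to 5 the estimate was -0.46, which passed the rule, and within replicates 1 and 2 it was -0.017. Whether the replicate sets differed in this respect was not tested.

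The other mevalonate enzymes gave smaller estimates. The estimate for Acat2 was -0.18 (exact permutation p = 0.0952), and that of Hmgcs1, which makes HMG-CoA, was -0.11 (p = 0.460 in the same test). Mvd, the decarboxylase that yields the isoprenoid unit, was at -0.15 (exact permutation p = 0.413), with a single high MWA node, and Mvk, the mevalonate kinase, was at -0.021.

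The steps from farnesyl diphosphate to lanosterol have 3 members, all with estimates below 0 and none called. Sqle, the epoxidase that adds oxygen to squalene, read 4.20, 4.26, 3.95, 4.76 and 4.36 FPKM in MWA replicates 1 to 5. The MWA+2DG replicates 1 to 5 read 4.22, 3.86, 4.32, 3.19 and 2.17 FPKM. MWA+2DG 1 and 3 were inside the MWA range, replicate 2 was just under it, and replicates 4 and 5 were further below. This gave a log2 fold change of -0.24 (SE 0.133, limma P = 0.0945, exact permutation p = 0.0873). Fdft1, the squalene synthase, was at -0.17 and Lss at -0.081 (exact permutation p = 0.175 and 0.484).

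From lanosterol to cholesterol, 7 of 8 enzymes had estimates below 0, with a median of -0.11, and 1 was called lower. Cyp51, the lanosterol demethylase and the first enzyme of this stretch, read 10.8, 8.59, 8.11, 10.1 and 7.89 FPKM in MWA replicates 1 to 5. It read 8.36, 7.04, 8.33, 6.06 and 4.88 FPKM in MWA+2DG replicates 1 to 5. All 5 MWA+2DG nodes lay below the MWA mean and 3 lay below every MWA node, with replicates 1 and 3 inside the MWA range. The mean was 9.11 ± 1.31 FPKM (SD, n = 5) in MWA and 6.93 ± 1.498 FPKM in MWA+2DG nodes. The log2 fold change was -0.36 (SE 0.140, 95% interval -0.67 to -0.053, limma P = 0.0258, exact permutation p = 0.0635), with the lowest limma P of the 32 genes. Without MWA+2DG 5 the estimate was -0.26 and the call was lost, as it was when MWA 1, MWA 4 or MWA+2DG 4 was left out (-0.30, -0.33 and -0.33).

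Sc5d desaturates the sterol ring near the end of the pathway. It read 9.22, 9.65, 8.32, 8.75 and 7.44 FPKM in MWA replicates 1 to 5 and 7.86, 8.31, 8.52, 7.12 and 5.95 FPKM in MWA+2DG replicates 1 to 5. All 5 MWA+2DG nodes lay below the MWA mean, yet only replicates 4 and 5 lay below the lowest MWA node. This was a log2 fold change of -0.18 (SE 0.101, limma P = 0.0988, exact permutation p = 0.103). Msmo1, the oxidase that starts the removal of methyl groups from the ring, was at -0.20, and Nsdhl, a dehydrogenase of the same steps, at -0.15 (exact permutation p = 0.175 and 0.222). Dhcr7, the reductase that makes cholesterol from its dehydro precursor, was at -0.076, Hsd17b7 at -0.074 and Tm7sf2, a sterol reductase, at -0.0072. Ebp was the exception at 0.034 (95% interval -0.17 to 0.24).

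**Figure D2:**
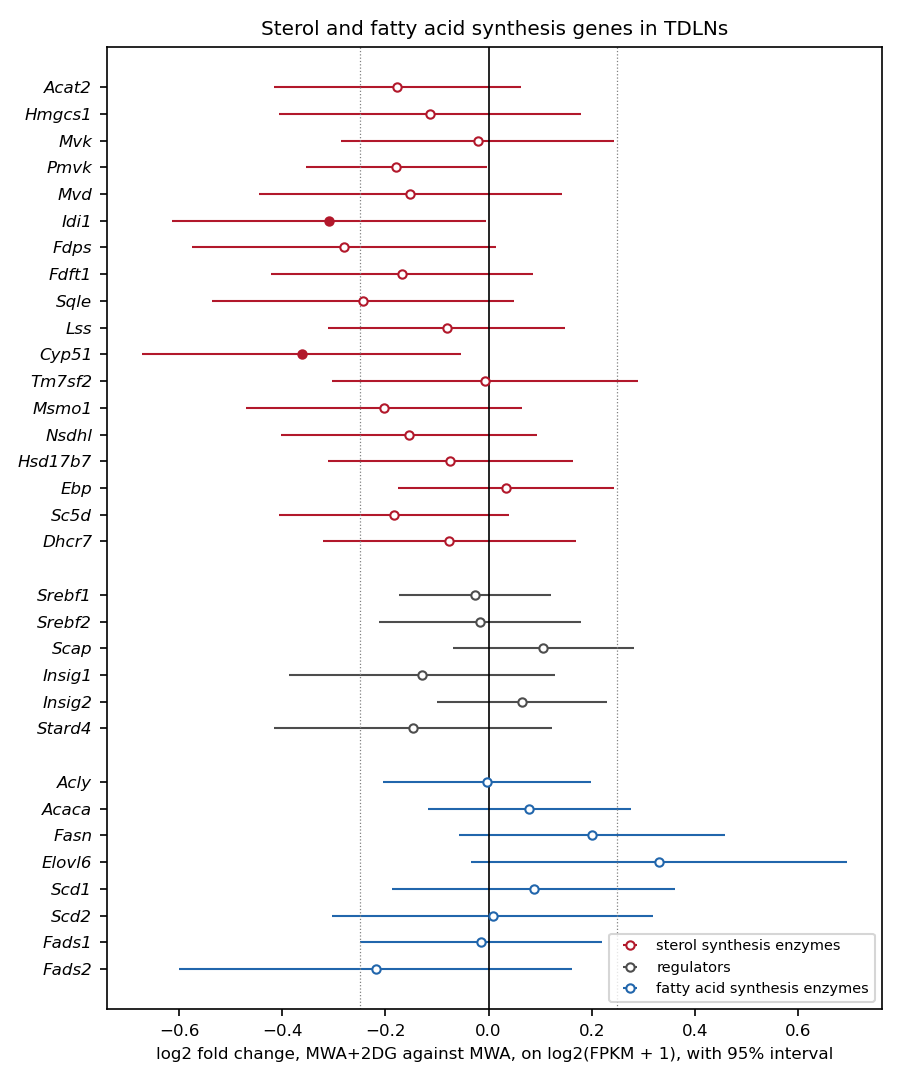
Log2 fold change of each gene, MWA+2DG against MWA, from limma on log2(FPKM + 1) (x axis, points) with its 95% interval (lines) for sterol enzymes, regulators and fatty acid enzymes. Filled points are the genes called by the study's rule, Cyp51 and Idi1, and dotted lines mark 0.25 on either side of 0. All sterol enzymes but Ebp lie left of 0, whereas the fatty acid enzymes lie on both sides.

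No member had groups that did not overlap, a pattern shown by 107 of the tested genes (0.802%). MWA+2DG 5 was the lowest of the 10 nodes for 15 of the 18 sterol enzymes, for 3 of the 6 regulators and for 4 of the 8 fatty acid enzymes, whereas it was the lowest node for 23.9% of all tested genes. The highest node was MWA 1 for 6 sterol enzymes, MWA 4 for 5 and MWA 5 for 5. The share of all tested genes that were highest in each node was not computed, so these counts have no background.

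The summed level of the 18 sterol enzymes was 141, 127, 122, 137 and 135 FPKM in MWA replicates 1 to 5 and 127, 123, 128, 114 and 94.0 FPKM in MWA+2DG replicates 1 to 5. The MWA+2DG replicates 1 to 3 fell inside the MWA range, and replicates 4 and 5 lay below it. Without MWA+2DG 5, 13 of 18 sterol enzymes had estimates below 0, the median log2 fold change was -0.084, and none was called. All genes then had a median of 0.026, with 41.4% below 0. Within replicates 1 and 2 alone, 13 of 18 sterol enzymes were below 0, with a median of -0.046 and none called, while 48.7% of all genes were below 0 and 2.17% were called lower. Within replicates 3 to 5 alone, 17 of 18 were below 0, with a median of -0.19, while 47.4% of all genes were. There Fdps was called lower, 1 of 18, and so were 2.89% of all genes. Most sterol enzymes had estimates below 0 in each setting, and the size of the estimates depended on the mice included. The settings shared mice, and the 18 enzymes were read in the same mice. These counts are therefore not independent observations.

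**Figure D3:**
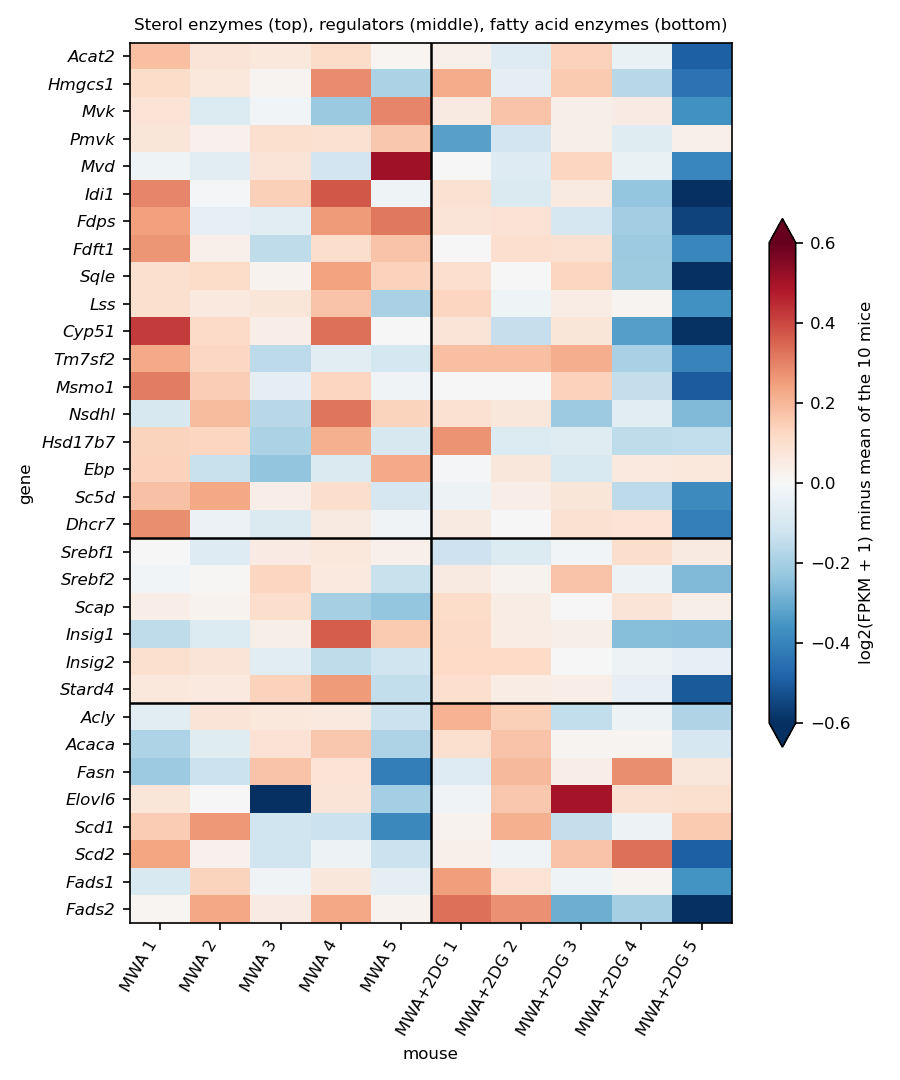
Log2(FPKM + 1) of each gene (rows) in each of the 10 mice (columns) minus the mean of that gene over the 10 mice, from low (blue) to high (red). MWA+2DG 5 has the lowest value of 15 of the 18 sterol enzymes, all but Pmvk, Ebp and Hsd17b7.

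Markers of other cells also differed between the groups. MWA+2DG 5 had the lowest sum of both the sterol enzymes and the dividing-cell markers. The dividing-cell sum was 199, 212, 229, 270 and 224 FPKM in MWA replicates 1 to 5. In MWA+2DG replicates 1 to 5 it was 187, 186, 174, 222 and 139 FPKM. How the dividing-cell sum went with the sterol sum over the 10 mice was not tested. Dividing-cell markers were lower with 2DG for 12 of 12 genes by estimate (median log2 fold change -0.29). Of the 12 markers 7 were called lower, beside 1.87% of all tested genes. The summed level of these markers ranged from 199 to 270 FPKM in MWA and from 139 to 222 FPKM in MWA+2DG nodes. None of the 12 was listed at 0. All 6 germinal centre B cell markers were called lower (median -0.58), with summed levels of 116 to 203 and 74.3 to 127 FPKM and none at 0. T cell markers were higher by estimate for 9 of 9 genes, and 1 was called higher, beside 0.952% of all tested genes. B cell markers were lower for 8 of 8 genes, with none called. All 6 tested plasma cell markers were lower, and 2 were called. Of 8 macrophage markers 6 were lower and 1 was called lower. The hepatocyte, epithelium, muscle, node stroma and endothelium lists held no call. Of 13 adipocyte markers 7 were tested and none was called. Their summed level ranged from 11.3 to 29.9 FPKM in MWA and from 15.8 to 144 FPKM in MWA+2DG nodes, and Lep, Plin1, Pck1 and Retn were listed at 0 in some nodes. The part of these cells in the sterol values was not tested. In whole nodes, fewer cells of a type and less RNA per cell cannot be told apart.

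With the most adipocyte-rich nodes, MWA+2DG 2 and 5, both left out, 12 of 18 sterol enzymes had estimates below 0, the median was -0.075 and none was called, with 43.8% of all genes below 0. The fatty acid enzymes, which adipocytes also express, had a summed level of 183 to 216 FPKM in MWA+2DG nodes and 160 to 214 FPKM in MWA nodes.

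**Figure D4:**
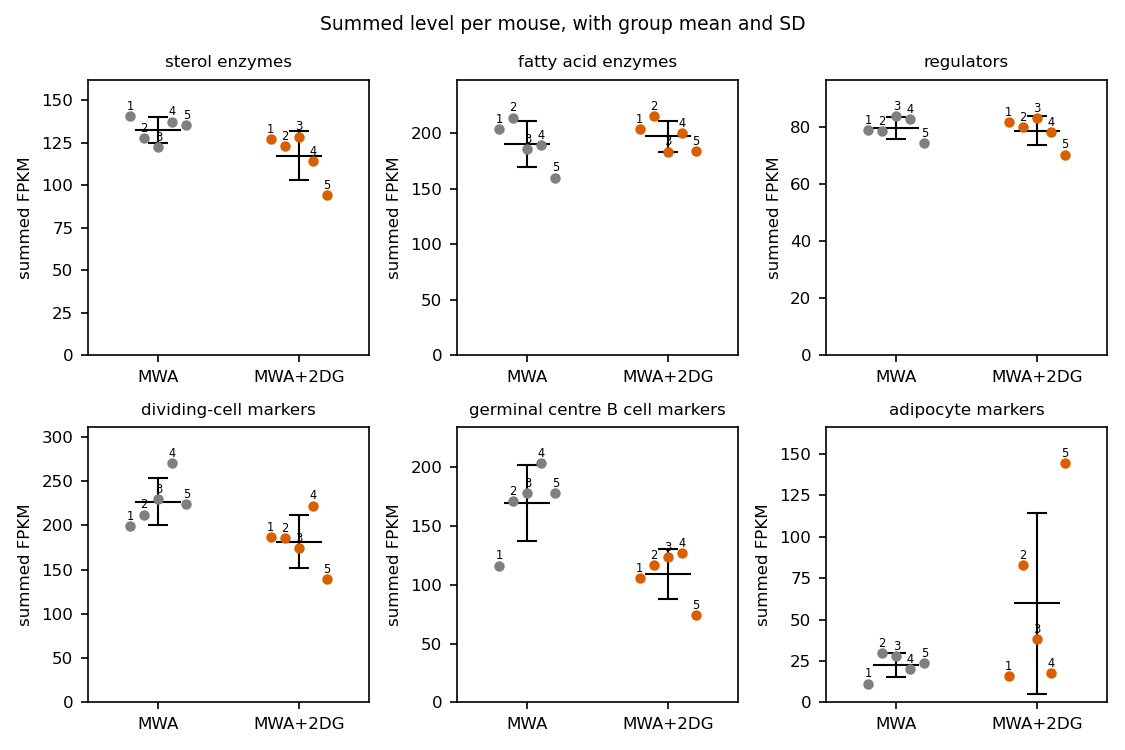
Summed FPKM per mouse (points, numbered by replicate) of the sterol enzymes, fatty acid enzymes, regulators and 3 marker lists, with group mean and SD. MWA+2DG 5 is lowest for the sterol enzymes and for the dividing-cell and germinal centre markers, and highest for the adipocyte markers.

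None of the regulators of the pathway was called. Srebf2 had a log2 fold change of -0.017 (95% interval -0.21 to 0.18) and Srebf1 of -0.026 (95% interval -0.17 to 0.12). Scap, the escort, was at 0.11, and Stard4, which moves sterol between membranes, at -0.15 (exact permutation p = 0.238 and 0.333). Insig1, itself a target of the SREBPs, was at -0.13 (exact permutation p = 0.325). It was at 0.20 within replicates 1 and 2 and at -0.35 within replicates 3 to 5, where it passed the rule as lower. In that setting 2.89% of all tested genes did so too. Whether its estimate differed between the sets was not tested. Insig2 was at 0.065 (exact permutation p = 0.317), with means of 7.14 ± 0.643 and 7.51 ± 0.482 FPKM (SD, n = 5). Its groups, which overlapped over all mice, did not overlap within either replicate set. Of the members only Pmvk showed this too, and so did 2.45% of all tested genes in one direction or the other. The exact permutation p of Insig2 within sets was therefore 0.0167, the smallest value such an exchange can give.

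Ratios of paired genes per mouse gave no difference that passed a test. The log2 ratio of Insig1 to Insig2, each taken as FPKM + 1, was 0.19 ± 0.313 (SD, n = 5) in MWA and 0.00080 ± 0.119 in MWA+2DG nodes (exact permutation p = 0.254, 0.762 after Benjamini-Hochberg adjustment over 3 ratios). That of Scd1 to Scd2 was 1.45 ± 0.181 and 1.53 ± 0.415 (exact permutation p = 0.730), and that of Srebf1 to Srebf2 was -0.97 ± 0.101 and -0.97 ± 0.223 (exact permutation p = 0.952).

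In the fatty acid arm 3 of 8 enzymes had estimates below 0, and the members nearest to a call were higher with 2DG. Elovl6 read 1.38, 1.25, 0.326, 1.39 and 0.961 FPKM in MWA replicates 1 to 5 and 1.22, 1.53, 2.19, 1.41 and 1.42 FPKM in MWA+2DG replicates 1 to 5. The groups overlapped, MWA 3 was far below the rest and MWA+2DG 3 far above. Its log2 fold change was 0.33 (SE 0.165, limma P = 0.0715, exact permutation p = 0.0714), and it was 0.18 without MWA 3, at levels near 1 FPKM where the scale compresses changes.

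Fasn, the synthase that makes palmitate, read 13.0, 13.9, 17.3, 16.2 and 11.2 FPKM in MWA replicates 1 to 5 and 14.4, 17.6, 15.7, 18.7 and 16.002 FPKM in MWA+2DG replicates 1 to 5. No MWA+2DG node lay below the MWA mean, and MWA 3 and 4 lay among the MWA+2DG nodes. The estimate was 0.20 (SE 0.117, limma P = 0.115, exact permutation p = 0.135). Without MWA 3 it was 0.27, which passed the rule, and Elovl6 passed it without MWA 4 at 0.39. Of all 13334 tested genes 153 were called higher without MWA 3 and 141 without MWA 4.

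The supply and desaturation enzymes gave no call. Acly was at -0.0025 (95% interval -0.20 to 0.20), Acaca at 0.079, Scd1 at 0.088 and Scd2 at 0.0081. Within replicates 1 and 2 Acaca was at 0.26, which passed the rule as higher, as did 371 of all 13334 tested genes. Within replicates 3 to 5 it was at -0.043. Fads1 and Fads2, desaturases of polyunsaturated fatty acids, were at -0.014 and -0.22 (exact permutation p = 0.921 and 0.333). Fads2 was at 0.18 within replicates 1 and 2 and at -0.48 within replicates 3 to 5, where it passed the rule as lower. So did 2.89% of all tested genes in that setting. The lowest value of Fads2, 6.35 FPKM, was again that of MWA+2DG 5. Whether the treatment estimates of Acaca and Fads2 differed between the sets was not tested. The summed level of the 8 fatty acid enzymes was 190 ± 20.5 FPKM (SD, n = 5) in MWA and 197 ± 13.7 FPKM in MWA+2DG nodes, next to 133 ± 7.60 and 117 ± 14.2 FPKM for the sterol enzymes and 79.6 ± 3.82 and 78.6 ± 5.04 FPKM for the regulators.

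**Figure D5:**
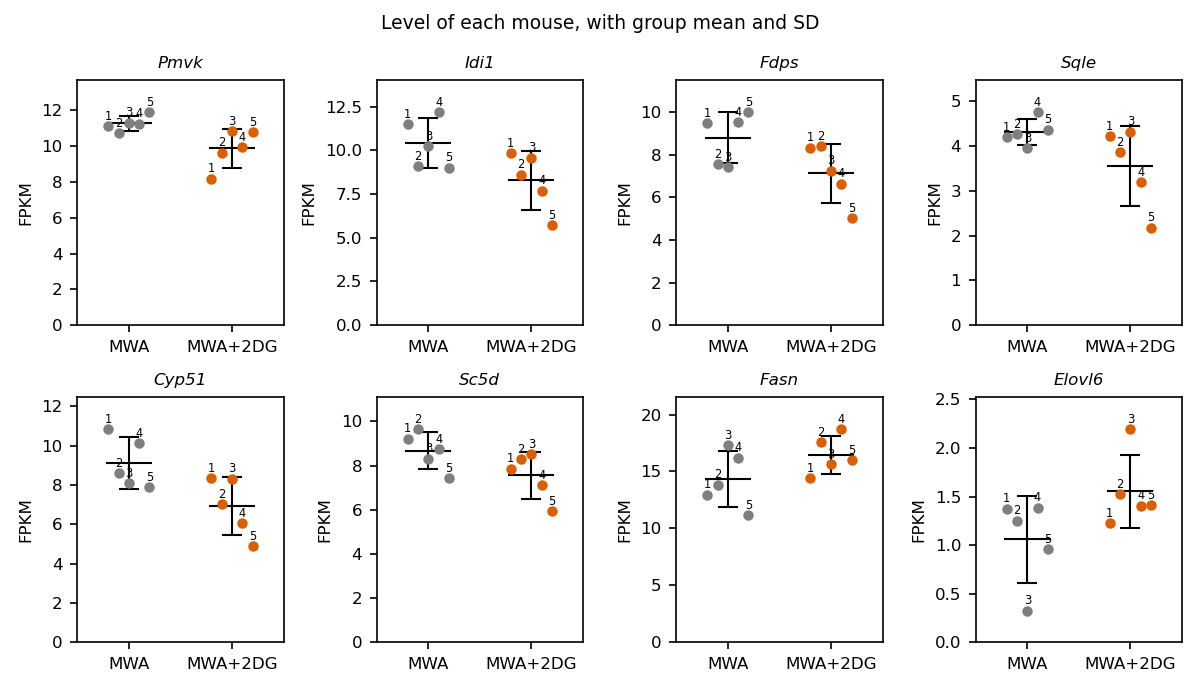
FPKM of each mouse (points, numbered by replicate) with group mean and SD for the 8 members with the smallest limma P. The sterol enzymes are lower on average in MWA+2DG nodes and Fasn and Elovl6 higher, with overlapping groups in each panel.

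The replicate sets were also compared for these genes. In a fit with treatment, 16 of 18 sterol enzymes, 7 of 8 fatty acid enzymes and 4 of 6 regulators were lower in replicates 3 to 5 than in replicates 1 and 2. The medians were -0.12, -0.13 and -0.059 on the log2 scale, beside -0.085 for all tested genes. Of 10 hepatocyte markers, Serpina1b was at 61.7 to 69.8 FPKM in replicates 1 and 2 and at 56.9 to 69.0 FPKM in replicates 3 to 5. The other 9, among them Ttr, summed to 0.0495 to 0.293 FPKM in replicates 1 and 2, with several listed at 0, and to 18.7 to 57.0 FPKM in replicates 3 to 5. Their part in the set values was not tested. By the same rule Tm7sf2, Scd1 and Fads2 were called lower in replicates 3 to 5, that is 3 of 32 members, a share near the 9.91% of all tested genes that were. With the set as a term in the treatment fit, 2 sterol enzymes were again called lower with 2DG.

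The genes around the pathway gave no call. Of 78 genes in 6 related lists (SREBP processing, LXR with sterol export and storage, the isoprenoid branch, acetyl-CoA and NADPH supply, fatty acid elongation and activation, and fatty acid oxidation), 73 were tested. None was called by the study's rule in either direction, and the median log2 fold change was 0.013. With the P threshold alone 3 of 73 passed, a share near the 4.25% of all tested genes, and these are named after their values were seen. Lipa, the lysosomal lipase that frees cholesterol from its esters, was 6.99 ± 0.193 FPKM (SD, n = 5) in MWA and 8.32 ± 0.485 FPKM in MWA+2DG nodes (log2 fold change 0.22, limma P = 0.00402, exact permutation p = 0.00794, adjusted limma p = 0.995). Cpt2, which completes the import of fatty acids into mitochondria, was 7.27 ± 0.291 and 6.24 ± 0.142 FPKM (log2 fold change -0.19, limma P = 0.00633, exact permutation p = 0.00794). The groups of Lipa and of Cpt2 did not overlap, that is 2 of 73 related genes, beside 0.802% of all tested genes. Their exact permutation p of 0.00794 is the smallest that 5 against 5 mice can give. Mid1ip1, a partner of acetyl-CoA carboxylase, had a log2 fold change of -0.21 (limma P = 0.0262, exact permutation p = 0.0159).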

How the data were processed

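Bulk RNA-seq was performed on 10 TDLNs, 1 library per mouse, 5 in each group, named by the labels. Nothing in the labels pairs the mice. RNA was poly(A) selected. Per the labels the submitters' notes name cutadapt 1.9, HISAT2 2.0.4, UMI-tools, StringTie 1.3.4d and build mm9, while the study's methods name fastp, HISAT2, StringTie and ballgown. The authors deposited FPKM values per Ensembl gene, 1 table of 33643 identifiers per library. FPKM holds no read counts, so depth is unknown, no counting error can be given, and reads were not recovered (the smallest value above 0 was 1e-06). Use of the molecular identifiers in the quantification is not stated. Summed FPKM per library was 312143 to 359984.

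Symbols matched 33541 identifiers, and 57 symbols shared by several identifiers were summed. limma 3.58.1 (R 4.3.3; lmFit and eBayes without covariates) was applied to log2(FPKM + 1) of the genes whose mean reached 1 FPKM, with Benjamini-Hochberg adjustment over all 13334 genes. A fold change on this scale understates the change of low genes. The fit was tested on simulated data with known differences. Single values were compared by two-sided exact permutation tests in Python 3.11.15, whose smallest p is 0.00794 for 5 against 5. The members, lists and tests were chosen with earlier results of these data known. All 32 members are named. Values in every mouse are given for the members called and, up to 8 in all, those of smallest limma P. Promoters of Fdps, Fdft1, Sqle, Stard4, Scd1, Scd2 and Fads1 were not used here.

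Alternatives were another pseudocount (0.1), filters of 5 FPKM or none, rescaling to 1000000, median ratio scaling, quantile normalization, limma-trend, no fold change threshold, groups that do not overlap, the replicate number as a block, the replicate set as a term and leaving out each mouse. The fits within replicate sets and without MWA+2DG 2 and 5 were chosen after seeing the data.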

Additional observations from a re-analysis of the deposited data

Results flagged for a closer look

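In the 64 groups of 5 mice examined (32 genes, each treatment), 3 single values lay far from the other 4 mice by Dixon's ratio, near the 1 in 20 that chance gives. Mvd was 16.4 FPKM in MWA 5, with the others between 10.3 and 11.9 FPKM. Hsd17b7 was 2.17 FPKM in MWA+2DG 1, with the others between 1.37 and 1.4999 FPKM. Dhcr7 was 2.92 FPKM in MWA+2DG 5, with the others between 4.21 and 4.55 FPKM.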

How the results depend on the processing

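The sterol enzymes called (2) numbered 1 with a pseudocount of 0.1 and with no filter, 0 after rescaling to 1000000, 0 by groups that do not overlap, 0 within replicates 1 and 2, 1 within replicates 3 to 5, 0 without MWA+2DG 2 and 5, and 3 with median ratio scaling, with quantile normalization and with no fold change threshold. They ranged from 0 to 3 when single mice were left out, with 0 without MWA 1, MWA 4, MWA+2DG 4 or MWA+2DG 5. With single mice left out the fatty acid enzymes called ranged from 0 to 1, and the regulators called stayed at 0. Within replicates 3 to 5 there was 1 of each. Over all genes the count of 376 ranged from 280 to 513 and was 230 with a filter of 5 FPKM, 567 with no fold change threshold and 107 by groups that do not overlap. Rescaling turned the balance of calls, from 127 higher and 249 lower to 328 higher and 159 lower, and moved the median of all genes from 0.0074 to 0.068. Under it 15 of 18 sterol enzymes stayed below 0, with a median of -0.12, while Mvk (0.0357), Tm7sf2 (0.0393), Srebf1 (0.0354), Srebf2 (0.0462), Acly (0.0607) and Fads1 (0.0448) turned positive, as did Srebf2 (0.0158) and Acly (0.0284) with quantile normalization. The median of the sterol enzymes stayed between -0.21 and -0.084 over the mice left out, that of the fatty acid enzymes between -0.011 and 0.094, and that of the regulators between -0.043 and 0.0037. Single estimates near 0 changed sign when a mouse was left out, with ranges of -0.0789 to 0.0672 for Mvk, -0.139 to 0.000205 for Lss, -0.0621 to 0.0917 for Tm7sf2, -0.0208 to 0.0954 for Ebp, -0.108 to 0.0176 for Dhcr7, -0.0556 to 0.00222 for Srebf1, -0.0619 to 0.0469 for Srebf2, -0.0545 to 0.0425 for Acly, -0.0736 to 0.131 for Scd2 and -0.0786 to 0.0733 for Fads1. The log2 ratio differences ranged from -0.0715 to 0.180 for Scd1 to Scd2 and from -0.0900 to 0.0368 for Srebf1 to Srebf2. The causes were not tested.

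The replicate number as a block kept 2 sterol enzymes called and changed no call of a member. Same-numbered mice correlated at 0.331, 0.501, 0.11, 0.0334 and 0.151 in their deviations, and not each of them best with its own number, so the numbers were not taken as pairs. The unknown depth leaves the error of low values such as Elovl6 unmeasured.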
